A study of Mus musculus with 4 samples.

Results

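Chromosome 4 was the mouse chromosome with the lowest ratio of mutant to wild-type H3K36me3 cover once chromosomes 6, 14 and 15 were set aside, and it was chosen by that ratio. All islands called on it were taken, 3549 of 58326 in the wild-type list and 3982 of 69798 in the mutant list. An island is a broad stretch of the genome in which a peak caller found more reads than its background allows. Since the cover in these same 2 lists selected the chromosome, all values below describe the 2 libraries and no test was made.

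H3K36me3 is trimethylation of lysine 36 on histone H3. The enzyme Setd2 travels with elongating RNA polymerase II and places the mark behind it, so that the mark lies over the bodies of transcribed genes, rises towards their 3′ ends and is scarce over silent genes. In muscle cells it therefore covers constitutively transcribed genes as well as genes of the contractile apparatus switched on during differentiation.

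The study mapped the mark by chromatin immunoprecipitation and sequencing (ChIP-seq) in cultured mouse myocytes of the FVB strain. Myoblasts came from skeletal muscle on postnatal day 4, were used at passages 5 to 10, and were made to differentiate by withdrawal of growth factors for 24 hours. One group was wild type. In the mutant group the enhancer that drives H19 and Igf2 in muscle, on another chromosome, had been deleted. Each group had 1 H3K36me3 library and 1 input DNA library, and the inputs were not analysed here. The labels do not say how many animals gave the cells, of which sex they were, or whether the deletion was on both alleles.

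The deposited lists give no read totals. From the scores of islands 1 window long, the mean number of reads per 200 bp window came out at 2.82 (wild type) and 3.11 (mutant). Each genotype has a single library and hence no replicate check, so a difference between genotypes and a difference between libraries cannot be told apart.

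The genes under the islands were not located, because the islands are on build mm9 and the gene table used here is on GRCm38. For the same reason the identity of the cells was not checked on muscle marker genes, and no sequence of an island is shown. In that table chromosome 4 holds 2923 genes. Among them are genes of muscle such as Musk, the receptor kinase of the neuromuscular junction, Tpm2, a tropomyosin, Myom3, a protein of the sarcomere's M band, Trim63, a ubiquitin ligase of muscle atrophy, and Pax7, the transcription factor of satellite cells. There are also blocks of genes that muscle cells do not normally transcribe, with 22 Mup genes (urinary proteins of liver), 13 Ifna genes (interferons), 11 Skint genes and 10 Cyp4a genes. By their order in the table, Mtap, Cdkn2a and Cdkn2b follow the Ifna genes and precede Elavl2. Cdkn2a and Cdkn2b encode inhibitors of the cell cycle. All 70 listed genes of muscle, matrix, growth control, housekeeping and other cell types were found on chromosome 4 of the table, and none was given a value here.

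Over the whole chromosome, islands covered 19.6 Mb in wild-type cells against 17.1 Mb in mutant cells, which is 0.875 times as much. The 15 autosomes left for comparison, without chromosomes 6, 14 and 15, had ratios from 0.931 (chromosome 13) to 1.03 (chromosome 1), with a median of 0.982. Chromosome 4 made up 6.35% of the cover of the wild-type list and 5.75% of that of the mutant list. The number of islands was 1.12 times as high in the mutant, below the 1.16 to 1.29 times of the other autosomes. Islands were on average 5514 bp long in wild-type and 4301 bp in mutant cells. This ratio of mean lengths, 0.780, lay within the range of the others (0.764 to 0.820), near its lower end. By these 2 factors, chromosome 4 stood outside the other autosomes in the ratio of island numbers, mutant to wild type. It stood inside them in the ratio of mean lengths over all islands.

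The lower cover ran along most of the chromosome. Of its 146 bins of 1 Mb with an island in a list, 106 had less cover in the mutant, 39 had more and 1 was equal. In the 15 other autosomes 56.4% of such bins had less cover in the mutant, against 72.6% on chromosome 4, and the highest share on a single one of them was 66.1% (chromosome 13). Bins past 1.5-fold were counted where cover reached 1% in a list, with 0.2 percentage points added to both values. On chromosome 4, 17 of 133 such bins (12.8%) were lower in the mutant, beside a background of 8.05% of 1614 bins on the other autosomes. Single autosomes ranged from 2.63% to 17.7% (chromosome 13), so this count lay within their range. Higher in the mutant were 9 bins (6.77%), beside a background of 6.94%. Over all 19 autosomes, 10.5% of bins were lower and 7.25% higher. The bins nearest the threshold had ratios of 0.657 (called, from 100000001) and 0.669 (not called, from 29000001). The median ratio of bins was 0.868 on chromosome 4, whereas the other autosomes had medians from 0.939 to 1.03.

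**Figure D1:**
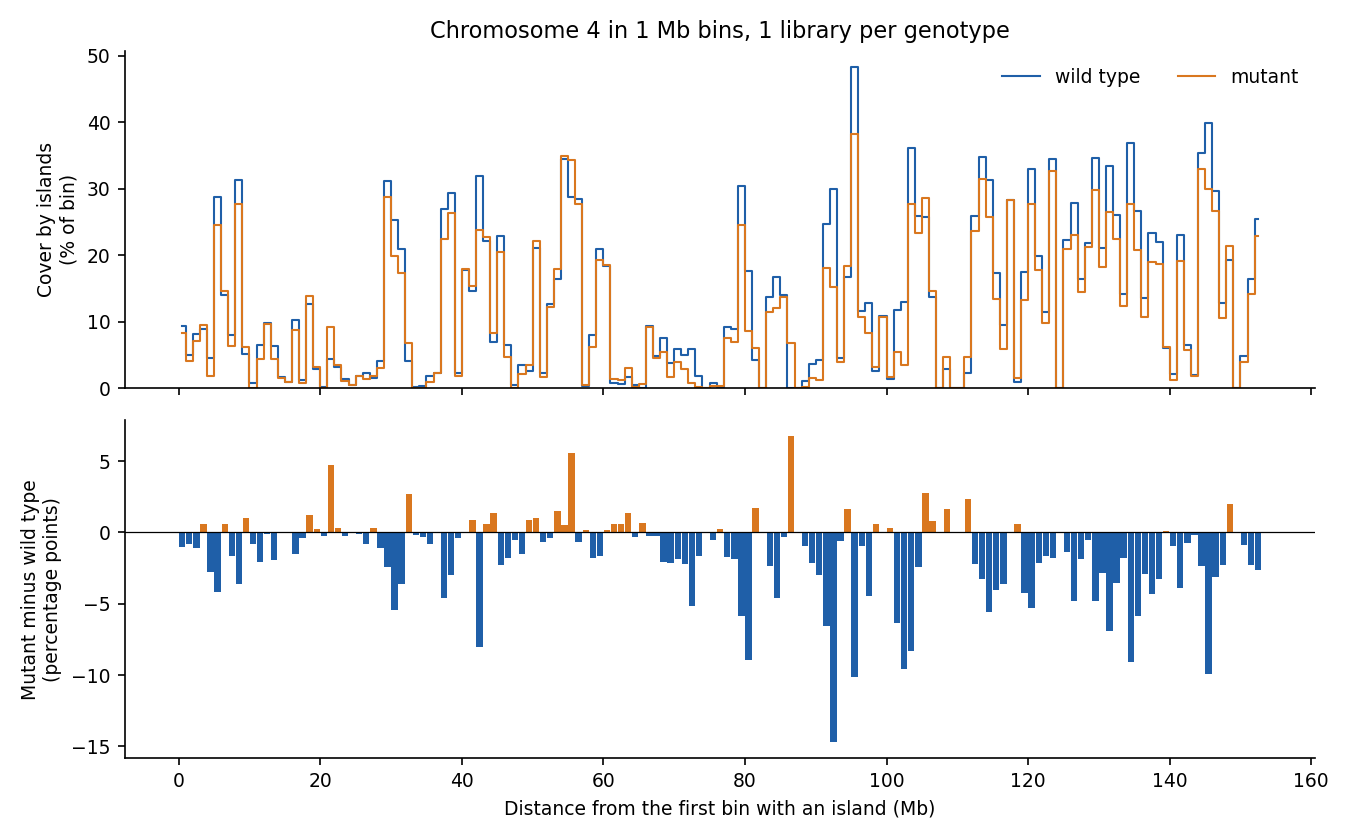
Cover of chromosome 4 by H3K36me3 islands in 1 Mb bins, by distance from the first bin with an island. The upper panel gives percent cover in the wild type and the mutant, and the lower panel the mutant minus the wild type in percentage points, with 106 bins below 0 and 39 above; the deepest bar is -14.7 and the tallest 6.78.

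No small set of bins carried the difference. The 5 bins with the largest deficit in the mutant held 21.9% of the net difference of -2443 kb, and without them the ratio was 0.893. Without the 10 largest it was 0.908, still below the lowest whole-chromosome ratio of the other autosomes. Leaving out any 1 bin gave ratios between 0.870 and 0.881. Of the summed deficit over bins with less cover, the 5 largest held 18.2%, where on the other autosomes the 5 largest held 20.1% to 52.0%. So the 5 largest bins held a smaller part of the deficit on chromosome 4 than on any of those 15. Chromosome 4 also had more bins with less cover, 106 against 30 to 100. The share of a fixed 5 tends to fall as that number rises, so these shares do not show how evenly the deficit was spread.

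All 8 segments of 20 Mb on chromosome 4 had less cover in the mutant, where 59.8% of 102 segments of the other autosomes had a ratio below 1. From the centromeric end the ratios were 0.878, 0.951, 0.966, 0.833, 0.790, 0.852, 0.862 and 0.871. The segments from 20 to 60 Mb therefore lay closest to 1, and the segment from 80 to 100 Mb had the lowest value. In the other autosomes segment ratios ran from 0.863 to 1.20 with a median of 0.981. The 4 segments from 60 to 140 Mb of chromosome 4 were all below the lowest of these. Between them the segments from 80000001 to 100000000 and from 120000001 to 140000000 held 22.3% and 24.9% of the net difference, and that from 20000001 to 40000000 held 2.46%.

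**Figure D2:**
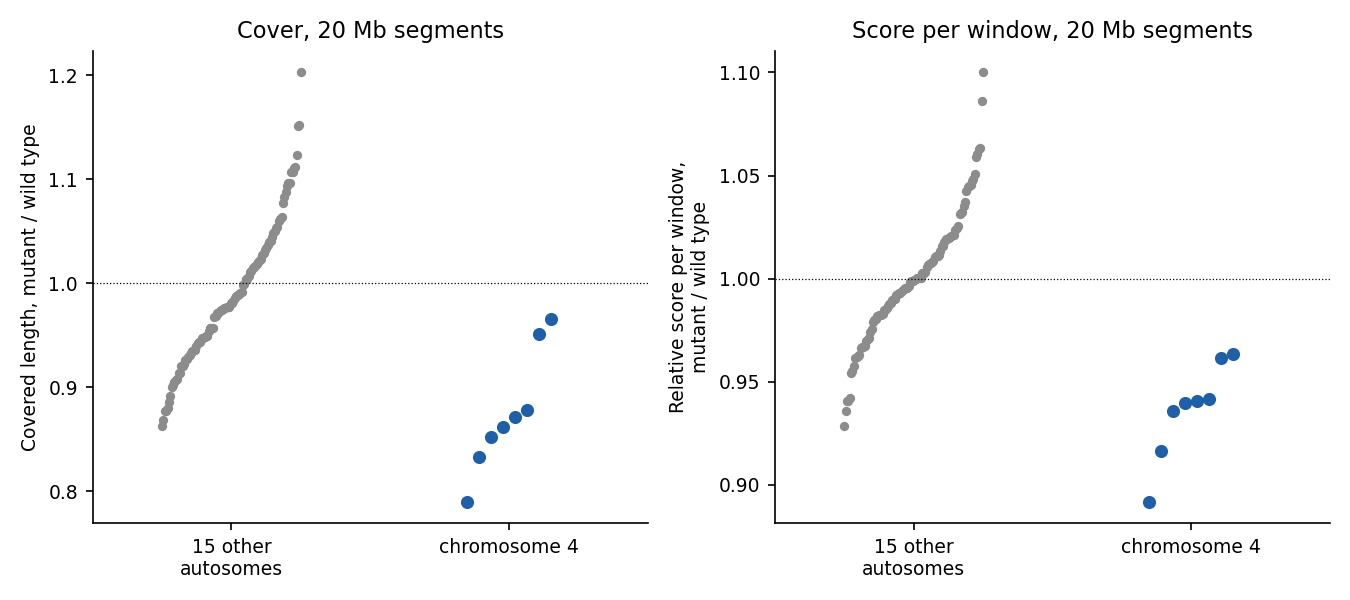
Ratio of mutant to wild type in segments of 20 Mb, for covered length (left) and for score per window relative to the other autosomes of the same list (right), with each group's points drawn in order of value. Grey points are 102 segments of 15 other autosomes and blue points the 8 of chromosome 4, which lie between 0.790 and 0.966 on the left and between 0.892 and 0.963 on the right.

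The difference was about as large in sparsely as in densely marked bins. Where mean cover of the 2 lists was 1 to 5%, 36 bins of chromosome 4 gave a ratio of 0.875, and where it was 25% or more, 24 bins gave 0.880. The classes between gave 0.866 (5 to 15%, 40 bins) and 0.879 (15 to 25%, 30 bins). On the other autosomes the ratio went from 1.04 in the sparsest class through 1.02 and 0.974 to 0.964 in the densest. The gap to the other autosomes was therefore wider in sparse bins. In the densest class 21 of 24 bins on chromosome 4 had less cover in the mutant, beside 66.9% on the other autosomes.

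Long runs of adjacent bins with less cover in the mutant were found in proximal, middle and distal parts of the chromosome. The longest was of 14 bins, from 128000001 to 142000000, with 3401 kb of wild-type and 2862 kb of mutant islands. Its bins had ratios between 0.754 and 0.977, so each was modestly lower and none passed 1.5-fold. The longest run on the 15 other autosomes was of 13 bins, on chromosome 2. A run of 8 bins from 69000001 to 77000000 was of another kind, with 441.6 kb of wild-type and 285.6 kb of mutant islands and a lowest bin ratio of 0.154. There, wild-type cover was low to begin with, at most 9.38% in any bin. Further runs of 8 bins lay from 13000001 to 21000000 and from 143000001 to 151000000, with ratios of 0.815 and 0.846.

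The largest deficit lay between 95000001 and 96000000, which was covered to 29.9% in wild-type and 15.2% in mutant cells. It centred on the 100 kb from 95400001, with 72.0% and 13.0%, and the neighbouring 100 kb bins had 54.4% and 26.2% before it and 57.6% and 20.2% after it. In this 1 Mb, 80 kb of wild-type cover were in islands with no counterpart and 105.4 kb in stretches of shared islands not covered in the mutant. Wild-type islands at 95429001 to 95437200 (8.2 kb) and 95486801 to 95495400 (8.6 kb) had no overlap in the mutant at all. Both were among the 5 longest such islands on the chromosome.

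The other 4 bins with the largest deficits differed in what was missing. From 98000001, wild-type islands covered 483.6 kb and mutant islands 382.4 kb, and 111.6 kb of the wild-type cover absent from the mutant lay within shared islands against 39.4 kb in islands with no counterpart. From 148000001 (39.9% and 30.04% cover) and from 137000001 (36.9% and 27.8%) shared islands likewise held more, with 88.8 kb against 42.8 kb and 79.8 kb against 37.4 kb. From 105000001 cover was 13.0% and 3.44%, with 35 wild-type and 14 mutant islands, and here whole islands were the larger part, 71.8 kb against 26.6 kb. Densely marked bins thus had shorter or split islands in the mutant, and the thinly marked bin had fewer.

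Runs of wild-type islands alone were also found. From 75489601 to 75917400, 15 consecutive wild-type islands that together covered 43.4 kb had no mutant island over or between them, and the 1 Mb bin around them was covered to 5.92% by wild-type and 0.740% by mutant islands. From 83502001 to 83788600, 10 consecutive wild-type islands covered 36 kb, in a bin with 17.6% and 8.64%. These were the 2 longest such runs on chromosome 4 by number of islands. On the distal part of chromosome 14, which was left out of the comparison, a run of 35 wild-type islands was found.

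The bin with the largest excess in the mutant stood apart from all this, because the wild type had no island there at all. In the wild type no island was called from 88838601 to 91639200, a stretch of 2801 kb. In its first part the mutant list held 25 islands, from 88918201 to 89218000, which covered 85.2 kb and were 0.6 to 7 kb long. Their median score per window was 4.69, above the 3.88 of all mutant islands on chromosome 4, and the scores per window ran from 2.22 to 39.2. The densest, at 88930001 to 88932000, had the highest score per window of the 3077 mutant islands of 2 kb or more on chromosome 4.

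Up to the edge of that stretch both lists held islands, and the last one before it ended at 88838600 in both. Just before, the mutant had its highest-scoring island of chromosome 4, at 88800001 to 88830000 (30 kb, 8.80 per window), and the wild type covered 29.2 kb of it with islands of 11.2 kb (5.84 per window) and 18 kb (7.99 per window). Further from the edge the mutant islands had higher scores per window, with 16.2 at 88793601 to 88799000, where the wild-type island from 88791001 had 8.53, and 5.73 at 88785401 to 88790400, where the wild type had 3.30. Past 89218000 both lists were nearly empty: the mutant had no island up to 91669800, and the wild type had 1, of 8.4 kb from 91639201, which had no overlap in the mutant. Among runs of consecutive mutant islands with no wild-type island over or between them, on the autosomes and chromosome X, this run of 25 came after runs of 32 on chromosome 5 and 26 on chromosome 12. Whether the input libraries hold reads in this stretch was not analysed here.

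The other excesses were smaller in relation to the wild type. From 58000001 wild-type islands covered 28.8% and mutant islands 34.4%, with 59 and 94 islands, and 92.2 kb of the mutant cover were in islands with no counterpart. From 24000001 it was 4.4% and 9.14%, with 14 and 32 islands. The bin from 35000001 had 4.06% and 6.76%, and that from 108000001 25.8% and 28.6%. In all 5 bins with an excess, islands with no counterpart gave more of the net difference than shared islands did. Runs of mutant islands alone on chromosome 4 included 13 islands from 35686601 to 35979400 (20.6 kb) and 9 from 151844401 to 152527400 (46.4 kb), the latter with the longest mutant island without overlap, at 151867601 to 151882200 (14.6 kb, 7.35 per window).

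To separate missing islands from shorter ones, cover found in 1 list alone was divided by whether its island had a counterpart, meaning at least 1 bp of overlap with an island of the other list. Of the wild-type cover of chromosome 4, 69.4% was also covered in the mutant (68.7% to 75.6% on the other autosomes, of which 14 had more). A further 2.57 Mb (13.1%) lay in 789 wild-type islands with no counterpart. The remaining 3.41 Mb (17.4%) lay in shared islands, of which 2.55 Mb were at their ends and 0.858 Mb in gaps inside them. In the other direction, 1.91 Mb lay in 828 mutant islands with no counterpart and 1.63 Mb in parts of shared islands that the wild type did not cover, equal to 9.74% and 8.34% of the wild-type cover.

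By plain amounts most of the net deficit was in shared islands. Their net was -1.78 Mb (-9.10% of wild-type cover), and islands with no counterpart gave -0.662 Mb (-3.38%). The other autosomes also had a negative net from shared islands, between -6.80% and -3.51%, but from islands with no counterpart their net was between -0.196% and 7.05%, positive on 14 of 15. Set against their mean, chromosome 4 differed by -6.44 percentage points in islands with no counterpart and by -4.04 in shared islands, which is 61.4% and 38.6% of its whole difference of -10.5. In plain net amounts shared islands thus held the larger part, while the difference from the other autosomes lay more in islands with no counterpart. Both orders depend on definitions. With a counterpart required to overlap 50% of the island, the net was -7.29% in islands with no counterpart and -5.20% in shared ones. With islands less than 2 kb apart joined, shared islands made up the larger part of the difference from the other autosomes (-5.97 against -4.75 percentage points). With the weakest wild-type islands removed until both lists covered the same length, islands with no counterpart netted -0.146%, beside 3.67% to 11.4% on the other autosomes.

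Less gain counted for more than greater loss in that contrast. Wild-type cover in islands with no counterpart was 2.57 percentage points above the mean of the others, and on chromosome 13 it was higher (13.9%). Wild-type cover absent from shared islands was 0.782 points above, and at 17.44% just above the highest of the 15 others (17.41%, chromosome 13). Mutant cover in islands with no counterpart, however, was 3.86 points below the mean (range of the others 10.7% to 17.7%), and mutant cover added within shared islands was 3.26 points below (10.5% to 12.8%). Both mutant terms were lower than on each of the 15 other autosomes.

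**Figure D3:**
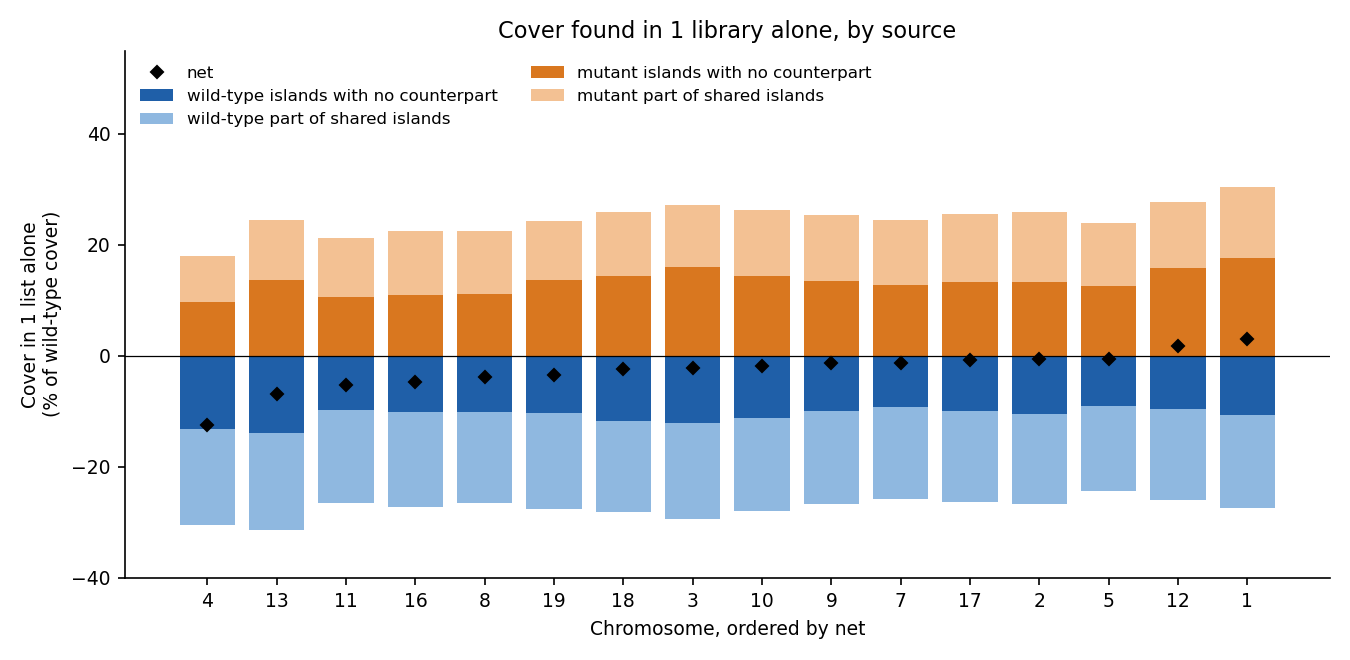
Cover found in 1 library alone as a percentage of wild-type cover, for chromosome 4 and 15 other autosomes ordered by net. Bars below 0 are wild-type cover absent from the mutant and bars above 0 mutant cover absent from the wild type, each split by whether the island had a counterpart, and diamonds are the net; on chromosome 4 it was -12.5%, and its upper bars, 9.74% and 8.34%, are lower than all others.

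Counted as islands, 22.2% (95% exact binomial interval 20.9% to 23.6%) of wild-type islands on chromosome 4 had no counterpart, beside 16.6% on the other autosomes. Of mutant islands 20.8% (19.5% to 22.1%) had none, beside 25.8%. The order of the lists was thus turned: on each of the 15 others a larger share of mutant than of wild-type islands lacked a counterpart. The intervals cover counting error only, and neighbouring islands are not independent. Islands without a counterpart were short in both lists, with a median length of 3000 bp for wild-type and 2000 bp for mutant ones, the same as on the other autosomes.

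Within each of the lower score groups the difference between chromosome 4 and the other autosomes was seen again. Each whole list was cut into 10 equal groups by score. In the lowest group 50% of wild-type islands on chromosome 4 had a counterpart, against 56.6% on the others. The gap was widest in the fifth group, with 71.1% (65.6% to 76.1%) against 84.9%, and closed in the highest, with 99.8% and 99.7%. Mutant islands showed the opposite, with 47.4% against 40.8% in the lowest group, 79.1% (74.8% to 83.0%) against 71.6% in the fifth, and 99.5% against 99.6% in the highest. Nearly all islands of chromosome 4 in the highest group therefore overlapped an island of the other list by at least 1 bp. The difference in counterparts lay among weak and middling ones. By covered length a difference remained in the highest group. There, 85.8% of the length of wild-type islands was covered in the mutant, against 88.8% on the others. For mutant islands 92.5% was covered in the wild type, against 89.9%.

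**Figure D4:**
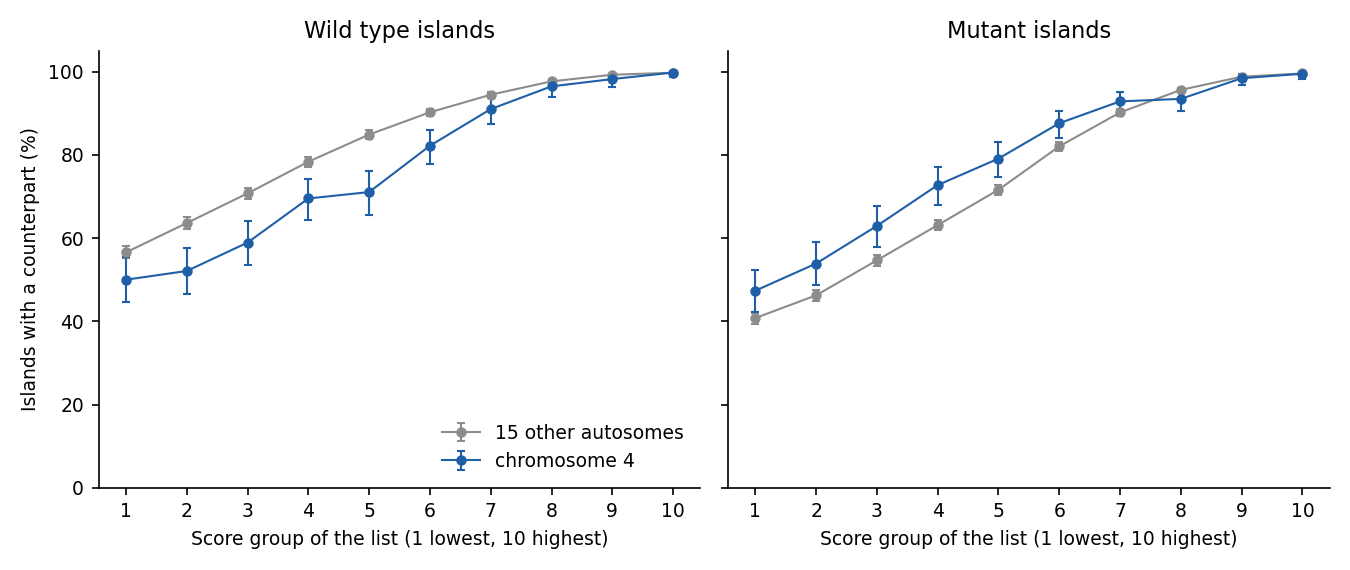
Percentage of islands with a counterpart in the other list, by score group of the own list, for wild-type (left) and mutant islands (right); bars are 95% exact binomial intervals, which cover counting error only. Chromosome 4 lies below the other autosomes on the left (71.1% against 84.9% in group 5) and above them on the right in groups 1 to 7, and the curves meet near 100% in the highest groups.

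Long islands were the class with the lowest ratio. Chromosome 4 had 429 wild-type and 304 mutant islands of 10 kb or more, which covered 6.90 and 4.61 Mb. That ratio of cover was 0.669, beside 0.861 on the other autosomes. Islands of 20 kb or more numbered 85 and 46, a ratio of 0.541 where the others had 0.614 to 1.04. From 5 to 10 kb the ratio of cover was 0.814 (0.855 on the others), and from 2 to 5 kb it was 1.05 (1.06). Under 2 kb the mutant had more, 905 against 356 islands, with ratios of cover of 2.41 and 2.91. None of the 429 long wild-type islands lacked a counterpart, so each was met by mutant cover over at least part of its length. The exact interval, which covers counting error only, allows a share of up to 0.856%. On the other autosomes 30 of 4580 (0.655%) lacked one. An overlap of 1 bp was enough for a counterpart, so a low share says little about how much of a long island was covered.

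Islands that met exactly 1 island of the other list, which met no further one, give the change of length directly. There were 1827 such pairs, with mean lengths of 4743 bp (wild type) and 4161 bp (mutant). The mutant island was shorter in 1054, longer in 574 and equal in 199. Shorter pairs made up 57.7%, beside 53.3% on the other autosomes, of which chromosome 13 was highest with 55.9%. The ratio of mean lengths was 0.877 on chromosome 4 and 0.904 to 0.953 on the others. The median of the length ratios of single pairs was 0.927, equal to that of chromosome 13, the lowest of the others (up to 0.967). By the median, chromosome 4 was thus not outside their range. Division into several islands was not particular in its frequency: 537 wild-type islands (15.1%) overlapped 2 or more mutant islands, within the 12.4% to 16.3% of the other autosomes.

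Examples of division came from the 5 longest wild-type islands. The longest, at 138945001 to 139015800 (70.8 kb), met 5 mutant islands, the longest of 17.4 kb, which left 6.8 kb inside it and 0.4 kb at its ends uncovered. The next, at 107902601 to 107972000 (69.4 kb), was met by 2 mutant islands of 33 and 36.6 kb with a gap of 1 kb between them. Those at 147825601 to 147872800 (47.2 kb) and 147885001 to 147931600 (46.6 kb) were covered to 92.4% and 94.4%, and that at 144722601 to 144766000 (43.4 kb) to 82.0%. The high-scoring island at 98326601 to 98367800 (41.2 kb, 8.84 per window) was covered to only 53.9% by 5 mutant islands of at most 9 kb. It lies in the bin with the second-largest deficit. At these places both lists had islands, and the mutant's were divided. The places were picked for length or score in the wild-type list, which favours finding the other list divided there.

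In the mutant list the longest islands were at 41144801 to 41184000 (39.2 kb), the pair just given, 141017801 to 141052600 (34.8 kb) and 56777401 to 56809600 (32.2 kb). Each was covered in the wild type to between 94.3% and 100%. Those from 41144801 and 141017801 each met 2 wild-type islands, and the others met 1 each. After the island at the edge of the empty stretch, the highest scores in the mutant belonged to islands at 11102001 to 11115000 (13 kb, 16.7 per window), 147194801 to 147221000 (26.2 kb), 57860401 to 57873800 (13.4 kb, 15.8 per window) and the one from 141017801. The wild type covered 89.3% or more of each of these, and the island from 147194801 met 3 wild-type islands. The longest and highest-scoring islands of the mutant thus had wild-type cover nearly throughout. Other strong ones had none, such as those at 88930001 to 88932000 (39.2 per window) and 151867601 to 151882200 (7.35 per window). Among wild-type islands without overlap the longest, at 11619401 to 11629000 (9.6 kb), had a score per window of 9.21, where the others of the 5 had 2.5 to 4.51.

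The deposited score of an island grows with read depth, so the score per window was first set against other chromosomes of the same list. Where it is compared between the lists, the difference in depth is included. In the wild type the median score per window of chromosome 4 islands was 3.75, above each of the 15 other autosomes (3.49 to 3.67). In the mutant it was 3.88, with 3 of the others below it and 12 above (3.86 to 4.04). Relative to all islands of the other autosomes, chromosome 4 stood at 1.05 in wild-type and 0.989 in mutant cells, and the second divided by the first was 0.945. By this measure the chromosome was at the upper end in the wild-type list and among the others in the mutant list, and which of the 2 libraries departs from the usual state cannot be told apart.

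**Figure D5:**
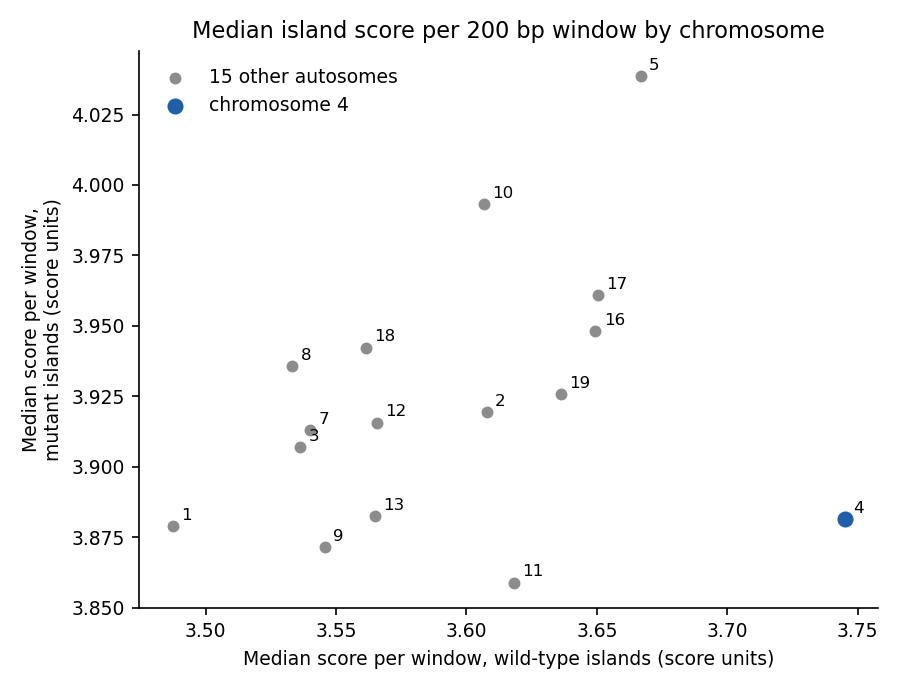
Median island score per 200 bp window on each chromosome, in the wild-type list (horizontal, score units) and in the mutant list (vertical, score units), each point a chromosome labelled with its number. Chromosome 4, at 3.75 and 3.88, lies to the right of all 15 others and within their range from top to bottom; the axes do not start at 0.

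Islands were then divided by whether they had a counterpart. With a counterpart, chromosome 4 islands had a median of 4.02 per window in the wild type (3.77 on the other autosomes) and 4.04 in the mutant (4.13). The first was above each of the 15 others (3.65 to 3.85) and the second below each of them (4.05 to 4.26), unlike the mutant median over all islands. Without one, the values were 2.81 (2.75) and 3.36 (3.36). In the pairs of 1 to 1 islands the median ratio of score per window, mutant to wild type, was 1.01 on chromosome 4 and 1.05 to 1.11 on the others. Those ratios include the difference in depth, which was estimated for each whole list and not by chromosome. In each length class the ratio of median score per window, mutant to wild type, was lower on chromosome 4 than on the other autosomes. It was 0.843 against 0.882 under 2 kb, 1.02 against 1.04 from 2 to 5 kb, 1.15 against 1.19 from 5 to 10 kb, and 0.976 against 1.103 at 10 kb or more.

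Along the chromosome, all 8 segments of 20 Mb had a ratio of relative score per window below 1, between 0.892 (from 60000001) and 0.963 (from 1), beside 52.0% of 102 segments of the other autosomes. The segment from 140000001 had 0.916, and it and the one from 60000001 lay below the lowest of 102 segments of the other autosomes (0.929). Their cover ratios were 0.871 (from 140000001) and 0.833 (from 60000001), the latter also below all 102 segments of the other autosomes. The lowest cover ratio was in the segment from 80000001. Cover there was 0.790 times the wild type, and the ratio of relative score per window was 0.961. Without reference to the other autosomes, the mutant's median score per window was 0.978 times the wild type's in the segment from 60000001 and 1.00 to 1.06 times in the other 7.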

How the data were processed

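The authors deposited 1 list of islands per H3K36me3 library, with an island score and no header. Per the submitters' processing notes, Bowtie 1.0.0 and SICER 1.1 were used with build mm9, and the file names give a 200 bp window and a 600 bp gap. Use of input, removal of duplicates and the calling threshold are not given in the sources used here. A SICER score adds up the negative log Poisson probabilities of an island's windows, so it grows with depth and length. Coordinates are printed counted from 1.

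Lists were laid on 200 bp windows with pandas 2.3.3 and numpy 2.4.6 under Python 3.11.15. Intervals are exact binomial (Clopper-Pearson, 95%, scipy 1.17.1), and figures were drawn with matplotlib 3.10.9. Depth was solved from 8 and 14 islands of 1 window, as the Poisson mean whose whole counts give the 6 distinct scores of each list. The mean-based split of the net used the 15 other autosomes weighted equally. Segments of 20 Mb with under 200 kb of wild-type cover were left out. The island and bin computations were tested on simulated data, a wild-type list of 3549 islands with known losses, and 6 of 6 quantities were recovered exactly.

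Regions were named by rule: the 5 bins of largest deficit and of largest excess, the longest run of bins, and per list the 5 longest, 5 highest-scoring and 5 longest islands without overlap. The 5 gene lists (17 muscle, 10 matrix, 13 growth control, 20 housekeeping, 10 other cell types) served only for gene order. The runs of islands found in 1 list alone, the stretch without wild-type islands, the 20 Mb segments, the cover classes and the score groups were added after values were seen. The chromosome, measures and lists were chosen with earlier results of these data known. Alternatives varied bin size, fold, minimum cover, island length, joining of islands, score cut, covered length, counterpart definition and the set of autosomes.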

Additional observations from a re-analysis of the deposited data

How the results depend on the processing

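No paired analysis was possible because each genotype has 1 library, and for the same reason no replicate could be left out. The ratio of covered length on chromosome 4 (0.875) was 0.879 in the upper 50% of islands by score, 0.905 at equal covered length (4428 wild-type islands of lowest score removed), 0.834 without islands under 2 kb, 0.904 after joining islands within 2 kb, and 0.870 to 0.881 with any 1 bin left out. In the first 4 of these it lay below the lowest of the 15 other autosomes (0.968, 0.968, 0.870 and 0.963). Against all 18 other autosomes it did not, since chromosome 14 had 0.672.

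The net from islands with no counterpart (-3.38% of wild-type cover) was -3.48% in the upper 50% by score, -0.146% at equal covered length, -8.15% without islands under 2 kb, -3.59% after joining and -7.29% with a counterpart at 50% of the island. The net from shared islands (-9.10%) was -8.62%, -9.40%, -8.50%, -6.01% and -5.20% in the same order. Islands with no counterpart held 44.3% of the difference from the other autosomes with islands joined and 53.0% to 75.7% under the other 4 of these, and 61.4% as reported.

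Of bins past the fold, 17 were lower and 9 higher as reported. The counts were 6 and 3 of 71 in 2 Mb bins and 50 and 19 of 243 in 500 kb bins. They were 8 and 3 of 98 in bins of at least 5% cover, and 10 and 2 of 133 at a fold of 2. At the lowest fold tried there were 41 lower and 11 higher of 133. In the same order, lower bins made up 8.45%, 20.6%, 8.16%, 7.52% and 30.8%. On the other autosomes they made up 3.46%, 13.6%, 3.31%, 3.16% and 15.2%. The share of lower bins exceeded that of the other autosomes in each of these. The share of higher bins lay below theirs in each. It was nearest in 2 Mb bins (4.23% against 4.27%) and furthest at the lowest fold (8.27% against 14.4%). The relative score per window (0.945) was 0.946 against 18 autosomes, 0.960 in islands of 2 to 10 kb, 0.947 without islands under 2 kb and also after joining, 0.922 from summed scores and 0.952 in the upper 50% by score. No ratio of cover or of relative score per window changed from lower to higher in the mutant, and neither net changed its sign. Which source held the larger part did change with the setting, as given above. Depth limits the weakest islands most, since the list with more reads per window can call weaker ones.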
